A study of Drosophila melanogaster with 2 samples.

Results

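The genes described here are 10 genes of eye colour in the fruit fly Drosophila melanogaster: w (white), st (scarlet), bw (brown), v (vermilion), cn (cinnabar), cd (cardinal), ry (rosy), pr (purple), se (sepia) and Hn (Henna). They were chosen by name, and every array probe annotated with exactly 1 of these symbols, or with a synonym of it, was taken. Of the 10 genes, 7 had a probe, with 1 probe each, among 12236 named genes with a probe. Of these 7, 5 were measured on both arrays (st, bw, ry, pr and se), among 10584 named genes. The gene cn had a value on replicate 1 alone, and cd had none. The annotation used here names no probe for w, v or Hn, so these 3 are not analysed here.

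RNA of larvae with the transgene GFP-B52, which makes the splicing factor B52 fused to green fluorescent protein, was compared with RNA of larvae carrying GFP-NLS, which is green fluorescent protein held in the nucleus by a localisation signal. B52 belongs to the SR proteins, splicing factors rich in serine and arginine. Both groups came from a cross to GMR, a promoter that fly geneticists use to drive genes in the developing eye, so both carried GMR and green fluorescent protein. The study asked whether more B52 alters the expression of other genes. Each of the 2 arrays held both RNAs: on replicate 1 the GFP-B52 RNA was labelled with Cy5 and the GFP-NLS RNA with Cy3, and replicate 2 had the dyes exchanged. The labels do not give the stage, sex or number of the larvae, the part of the body used, the white allele or the marker of the transgenes. The molecule is given as polyA RNA except in the GFP-NLS channel of replicate 1, where it is cytoplasmic RNA, so on that array the kind of RNA and the group cannot be told apart if the labels hold. Nothing states that the arrays carried separate RNA extracts, so the p-values measure the spread between arrays, which may be technical.

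The colour of the fly eye comes from 2 kinds of pigment held in granules of the pigment cells. The brown ommochromes are made from tryptophan through kynurenine by the enzymes of v, cn and cd, and the red drosopterins and other pteridines are made from GTP by a pathway that includes pr, se and ry. The precursors enter the granules through ABC transporters, in which the protein of w pairs with that of st for ommochromes and with that of bw for pteridines. In larvae, several of these genes are also active in the Malpighian tubules and the fat body. A w minigene is a common marker of fly transgenes, but as no probe of w was named, its level could not be used as a sign of transgene dosage.

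The deposited values are log ratios of the 2 channels, but their log base and direction are not stated. Each value is therefore given in 2 readings. Read by channel, a value is channel 2 over channel 1, which is B52 over control on both arrays. Read by dye, it is Cy5 over Cy3, which is control over B52 on replicate 2, so values of that array change sign to match replicate 1. A probe whose arrays share a sign in one reading has opposite signs in the other. The arrays give no level of a transcript, so the tissue could not be checked through its markers. In RNA of whole samples, fewer cells of a type and less RNA per cell cannot be told apart. Values were present for 13919 spots on replicate 1 and 14026 on replicate 2, and over the 12500 probes tested the arrays correlated with Pearson's r of 0.0095, given as a description across probes. The 5 probes of B52 itself had a mean of -0.0468 ± 0.126 (SD, n = 2 arrays) by channel and of -0.0892 ± 0.0662 by dye. Single probes differed, with means from -0.203 to 0.1915 by channel and from -0.4085 to 0.101 by dye. Read by the mean of these probes, B52 RNA was thus not measurably higher in the larvae labelled GFP-B52.

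None of the 5 pigment genes measured on both arrays was called as changed in the test, in either reading. The test called 0.0% of all 12500 probes, so it cannot show that the 5 were unchanged. The gene with the mean farthest from 0 was ry, which encodes xanthine dehydrogenase, at -0.2045 by channel, and by dye it was se, an enzyme of red pigment synthesis, at -0.1635. The transporter genes st and bw were above 0 on both arrays by channel, and pr was above 0 on both by dye. In either reading, 10.9% or more of all tested probes had a mean farther from 0 than any of the 5. In limma's test 0 of the 5 probes passed an adjusted p of 0.05 in either reading, where 0.0% of all 12500 probes did. At an unadjusted p under 0.05 limma also gave 0 of the 5 in both readings, against 6.52% of all probes by channel and 6.0% by dye. A difference of at least 0.301 with the same sign on both arrays, a 2-fold difference on a log10 scale, was reached by 0 of the 5 in both readings, against 1.52% of all probes by channel and 1.62% by dye. With the size set at 1, a 2-fold difference on a log2 scale, 0 of the 5 and 0.0% of all probes passed in both readings.

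The transporter genes of the list were st and bw. For st, probe 12983 read 0.088 on replicate 1 and 0.236 on replicate 2 (deposited log ratios, here and for the genes that follow). Both arrays were thus above 0 by channel, replicate 2 more so, and the arrays opposed each other by dye. Read by channel, the mean was 0.162 ± 0.105 (SD, n = 2 arrays), or 1.45-fold on a log10 scale and 1.12-fold on a log2 scale, with a limma 95% interval of -0.069 to 0.393 and an adjusted p of 0.83. Read by dye, the mean was -0.074 ± 0.229, with a limma adjusted p of 0.999.

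The protein of bw carries pteridine precursors together with that of w. Its probe, 8885, read 0.209 on replicate 1 and 0.046 on replicate 2. Here replicate 1 held the larger value, the reverse of st. The mean by channel was 0.1275 ± 0.115 (SD, n = 2 arrays), or 1.34-fold on a log10 scale and 1.09-fold on a log2 scale, with a limma 95% interval of -0.107 to 0.362 and an adjusted p of 0.88. The mean by dye was 0.0815 ± 0.18, where the arrays opposed each other (limma adjusted p = 0.999). Read by channel, 17.8% of all tested probes had a mean farther from 0 than st and 26.4% one farther than bw, so neither stood apart from the rest of the array.

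Of the pteridine enzymes, pr encodes pyruvoyltetrahydropterin synthase, which makes the precursor shared by the drosopterins and the cofactor tetrahydrobiopterin. Probe 15076 of pr read 0.177 on replicate 1 and -0.06 on replicate 2. Opposite deposited signs give the same sign by dye, where the values for B52 over control were 0.177 and 0.06. Their mean was 0.1185 ± 0.0827 (SD, n = 2 arrays), 1.31-fold on a log10 scale and 1.09-fold on a log2 scale, with a limma 95% interval of -0.117 to 0.354 and an adjusted p of 0.999. Read by channel, the mean was 0.0585 ± 0.168 (limma adjusted p = 0.965), and it was below 0, at -0.035, once the median of each print block was removed.

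The enzyme of se belongs to the omega class of glutathione transferases and makes pyrimidodiazepine, a precursor of the red drosopterins. Its probe, 7801, read -0.142 on replicate 1 and 0.185 on replicate 2. Read by dye, these are -0.142 and -0.185, the closest pair of values among the 5 genes. The mean there was -0.1635 ± 0.0304 (SD, n = 2 arrays), 1.46-fold lower on a log10 scale and 1.12-fold lower on a log2 scale, with a limma 95% interval of -0.394 to 0.067 and an adjusted p of 0.999. The ± of a single probe rests on 2 values, and limma, which draws each probe's variance towards that of all probes, gave a standard error of 0.0961. The by-dye mean of se was nearer to 0, at -0.1265, once the median of each print block was removed, a move of at least 1 SD. Read by channel, the mean was 0.0215 ± 0.231 (limma adjusted p = 0.988), and it was below 0, at -0.0165, once the median of each print block was removed.

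The gene ry encodes xanthine dehydrogenase, which makes isoxanthopterin and uric acid and whose loss leaves the eye brownish. Its probe, 7594, read -0.119 on replicate 1 and -0.29 on replicate 2. Of the 5 genes, ry was the only one below 0 on both arrays by channel. Its mean there was -0.2045 ± 0.121 (SD, n = 2 arrays), 1.6-fold lower on a log10 scale and 1.15-fold lower on a log2 scale, with a limma 95% interval of -0.441 to 0.032. The limma p was 0.0762 before adjustment and 0.796 after it, and 10.9% of all tested probes had a mean farther from 0. Read by dye, the arrays opposed each other and the mean was 0.0855 ± 0.289 (limma adjusted p = 0.999).

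**Figure D1:**
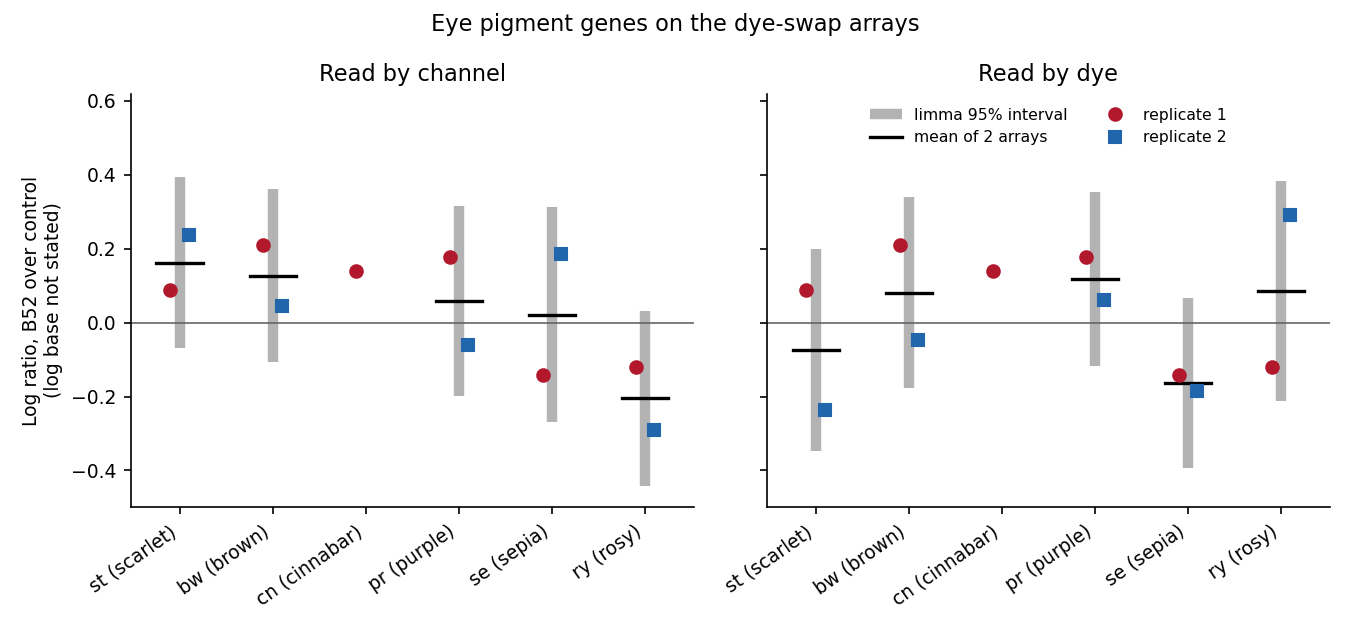
Log ratios of B52 over control (vertical axis, log base not stated) of the 6 pigment genes with a value, read by channel on the left and by dye on the right. Circles are replicate 1, squares replicate 2, black bars the mean of 2 arrays and grey bars the limma 95% interval. All 10 intervals include 0, and cn has a value on replicate 1 alone.

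Of the ommochrome enzymes, cn, which encodes kynurenine monooxygenase, had a value of 0.141 on replicate 1, from probe 2198, and a blank on replicate 2. With a value on 1 array it entered no test. The probe of cd, 7049, was blank on both arrays. The product of cd is a haem peroxidase active late in ommochrome synthesis. Blanks were thus found for 2 of the 7 member probes, against 14.8% of the 13147 probes with 1 gene symbol. A blank gives no level, since intensities and flags are not used here. The ommochrome branch among the members was therefore measured through its transporter gene st and through the single value of cn.

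Set side by side, the 5 genes did not share a sign in either reading. Read by channel, st and bw were above 0 on both arrays (2 of 5, against 28.1% of all named genes), ry was below 0 on both (1 of 5, against 24.3%), and pr and se had opposite signs. In all, 3 of the 5 had 1 sign on both arrays, against 52.4% of all named genes. Read by dye, pr was above 0 on both arrays (1 of 5, against 21.9% of all named genes), se was below 0 on both (1 of 5, against 25.6%), and st, bw and ry had opposite signs. There 2 of the 5 had the same sign, against 47.5% of all named genes. These shares are near the background and are no result about the members. From high to low, the by-channel means ran st, bw, pr, se and ry, and the by-dye means ran pr, ry, bw, st and se. The limma intervals of all 5 overlapped one another in each reading, and no test of a difference between genes was run.

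The median of the 5 gene means was 0.0585 by channel, with array medians of 0.088 and 0.046. Over all 10584 named genes the median of the by-channel means was 0.0085. Read by channel, the member median was -0.0165 with print-block medians removed, of the opposite sign. Read by dye, the median of the members was 0.0815, and the array medians, 0.088 and -0.046, opposed each other. Over all named genes the median of the by-dye means was -0.0075. With st and bw both above 0 by channel and se, pr and ry spread around it, the median of 5 genes says little about either branch alone.

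**Figure D2:**
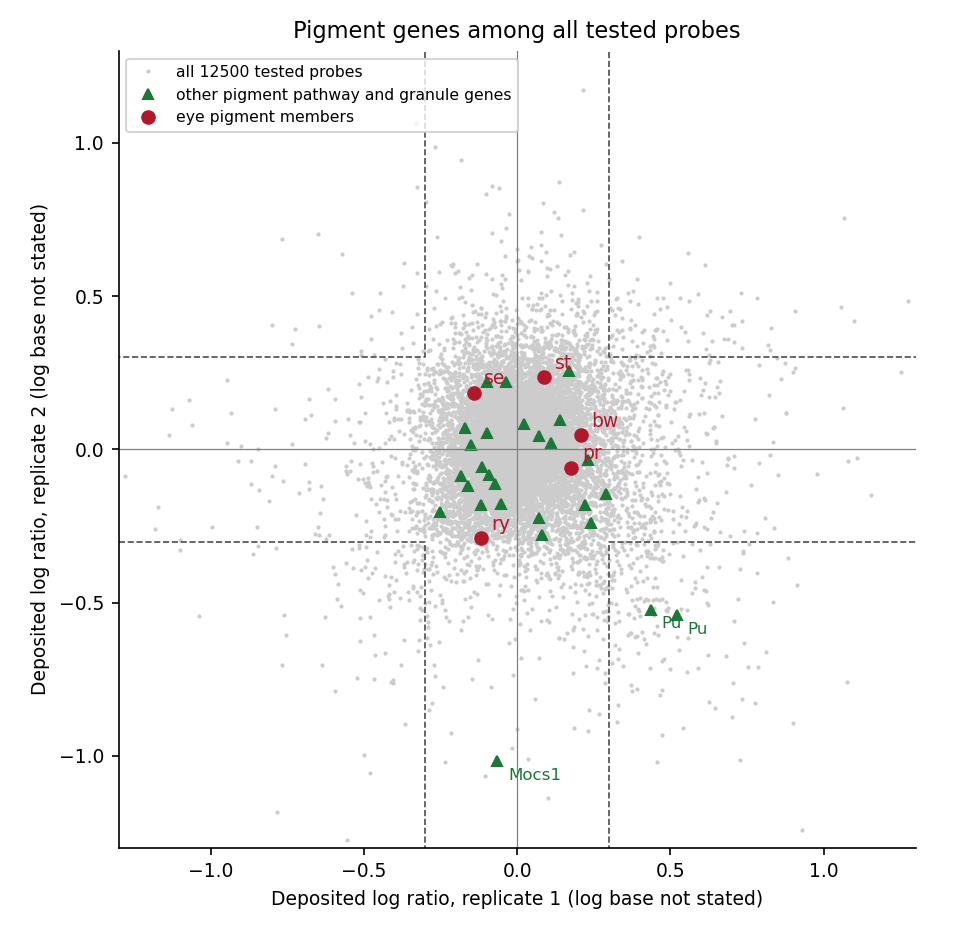
Deposited log ratio on replicate 1 (horizontal axis) against replicate 2 (vertical axis), log base not stated, for all 12500 tested probes in grey, of which 12 lie outside the axes. Red circles are the 5 pigment members and green triangles the other genes of pigment synthesis and granule trafficking. Dashed lines bound the corners past 0.301 on both arrays, which hold both probes of Pu and 0 of the 5 members.

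A single probe carried each member, so probes of other genes were compared as a measure of how alike 2 probes of a gene read. Across 869 pairs of probes of 1 gene that lay at different places of the sub-grid, the values correlated with Pearson's r of 0.179 on replicate 1, and across 875 such pairs with 0.101 on replicate 2. Pairs of probes of 1 gene at the same place of different sub-grids had r of 0.331 on replicate 1 (253 pairs) and 0.225 on replicate 2 (269 pairs). Probes of 1 gene can cover different parts of a transcript. Values also varied with position. Spots of different genes at the same place of sub-grids 2 apart correlated with r of 0.0828 on replicate 1 and 0.18 on replicate 2, and spots 1 place off with 0.0107 and 0.0834. These are descriptions across spots that share an array. The probes of ry and se lay in the same print block, where the median was 0.001 on replicate 1 and 0.075 on replicate 2. The block of pr had medians of 0.056 and 0.131, so its value of -0.06 on replicate 2 lay below its surroundings by more than its distance from 0. The block of st had medians of 0.0295 and 0.0815, and that of bw -0.0475 and -0.0125, and with these removed the by-channel means of st, bw and ry were 0.1065, 0.1575 and -0.2425. The part of position in the values of the members was not tested further.

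Close relatives of 2 members were on the arrays, and related sequences can share signal on a probe. The omega glutathione transferase genes GstO1, GstO2 and GstO3 belong to the family of se. Their by-dye means were 0.0975 ± 0.0912 for GstO1, -0.078 ± 0.0035 for the mean of the 2 probes of GstO2 and -0.012 ± 0.0792 for GstO3 (SD, n = 2 arrays), against -0.1635 for se. The GstO2 probes differed, with by-dye means of 0.0015 and -0.1575. Read by channel, the means were -0.0645 for GstO1, 0.0025 for GstO2 and 0.056 for GstO3, against 0.0215 for se. Aldehyde oxidases are relatives of xanthine dehydrogenase and use the same cofactor. Their by-channel means were 0.312 ± 0.557 for AOX1, 0.042 ± 0.141 for AOX2 and -0.067 ± 0.19 for AOX3, against -0.2045 for ry, and AOX4 had a value on replicate 2 alone. The by-dye means were -0.394 ± 0.4412 for AOX1, -0.1 ± 0.0594 for AOX2 and 0.134 ± 0.0948 for AOX3, against 0.0855 for ry. In limma 0 of the probes of both families had an adjusted p under 0.05 in either reading, where 0.0% of all probes did. Under an unadjusted limma p of 0.05 was AOX1 alone, by dye, at 0.0402, where 6.0% of all probes were. Read by channel, ry was below 0 on both arrays and 0 of the 3 aldehyde oxidase genes measured on both were, against 24.3% of all named genes. Counts this small do not set ry apart from its relatives.

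The rest of pigment synthesis was covered by 10 further genes, all measured on both arrays, with 11 probes. Limma called 0 of the 11 probes at an adjusted p of 0.05 in either reading, where 0.0% of all probes were called. At an unadjusted p under 0.05 limma gave 1 of the 11 by channel, against 6.52% of all probes, and 2 by dye, against 6.0%. The 2 were the probes of Pu, which encodes GTP cyclohydrolase, the enzyme that opens the pteridine pathway upstream of pr, se and ry. Probe 269 of Pu read 0.436 on replicate 1 and -0.523 on replicate 2, and probe 1581 read 0.521 and -0.542. Both probes were thus high on replicate 1 and low on replicate 2. Read by dye, the means were 0.4795 ± 0.0615 and 0.5315 ± 0.0148 (SD, n = 2 arrays), 3.02-fold and 3.4-fold on a log10 scale and 1.39-fold and 1.45-fold on a log2 scale, with limma adjusted p of 0.363 and 0.347. They were the only probes of the 11 past 0.301 with the same sign on both arrays by dye, a size reached upwards by 1.41% of all probes. Read by channel, the mean over both probes was -0.027 ± 0.715. The 2 probes lay at the same place of sub-grids 2 apart. Nothing states whether they are separate elements, so their agreement may not be that of independent probes. The other spots at that place, each time with the other Pu probe among them, had medians of 0.1625 on replicate 1 and -0.1365 on replicate 2. With those medians removed the by-dye mean of Pu was 0.356, against 0.5055 as deposited.

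Of the members downstream of Pu, pr was above 0 on both arrays by dye at 0.1185, se below 0 on both at -0.1635, and the arrays opposed each other for ry, so pr had the sign of Pu and se the opposite one. Over the 10 further synthesis genes, 4 were above 0 on both arrays and 3 below 0 on both by dye, against 21.9% and 25.6% of all named genes. Read by channel, there were 0 above 0 on both and 3 below 0 on both, against 28.1% and 24.3%. These counts were not tested. The median of the 10 was 0.077 by dye and -0.0725 by channel. KFase, kynurenine formamidase, which acts between the enzymes of v and cn, had a by-dye mean of 0.18 ± 0.139 (SD, n = 2 arrays; limma adjusted p = 0.999), and kar, whose mutants have altered eye colour, had -0.075 ± 0.0311. Sptr, sepiapterin reductase, had the highest by-channel mean of the pteridine list, 0.098 ± 0.19. Mocs1, needed for the molybdenum cofactor of xanthine dehydrogenase, had the lowest, -0.541 ± 0.675, which rested on replicate 2, as the deposited values were -0.064 on replicate 1 and -1.018 on replicate 2 (limma adjusted p = 0.789). Another gene of cofactor synthesis, cin, was the 1 probe of the 11 with an unadjusted p under 0.05 by channel. It read -0.253 on replicate 1 and -0.204 on replicate 2, with a by-channel mean of -0.2285 ± 0.0346 (SD, n = 2 arrays). The limma p was 0.0411 before adjustment and 0.75 after it. The third, mal, which encodes the sulfurase of the cofactor, read -0.15 and 0.014. Read by channel, cin and Mocs1 were thus below 0 on both arrays and mal was not, against 24.3% of all named genes below 0 on both. Both cin and mal were singled out after their values were seen.

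**Figure D3:**
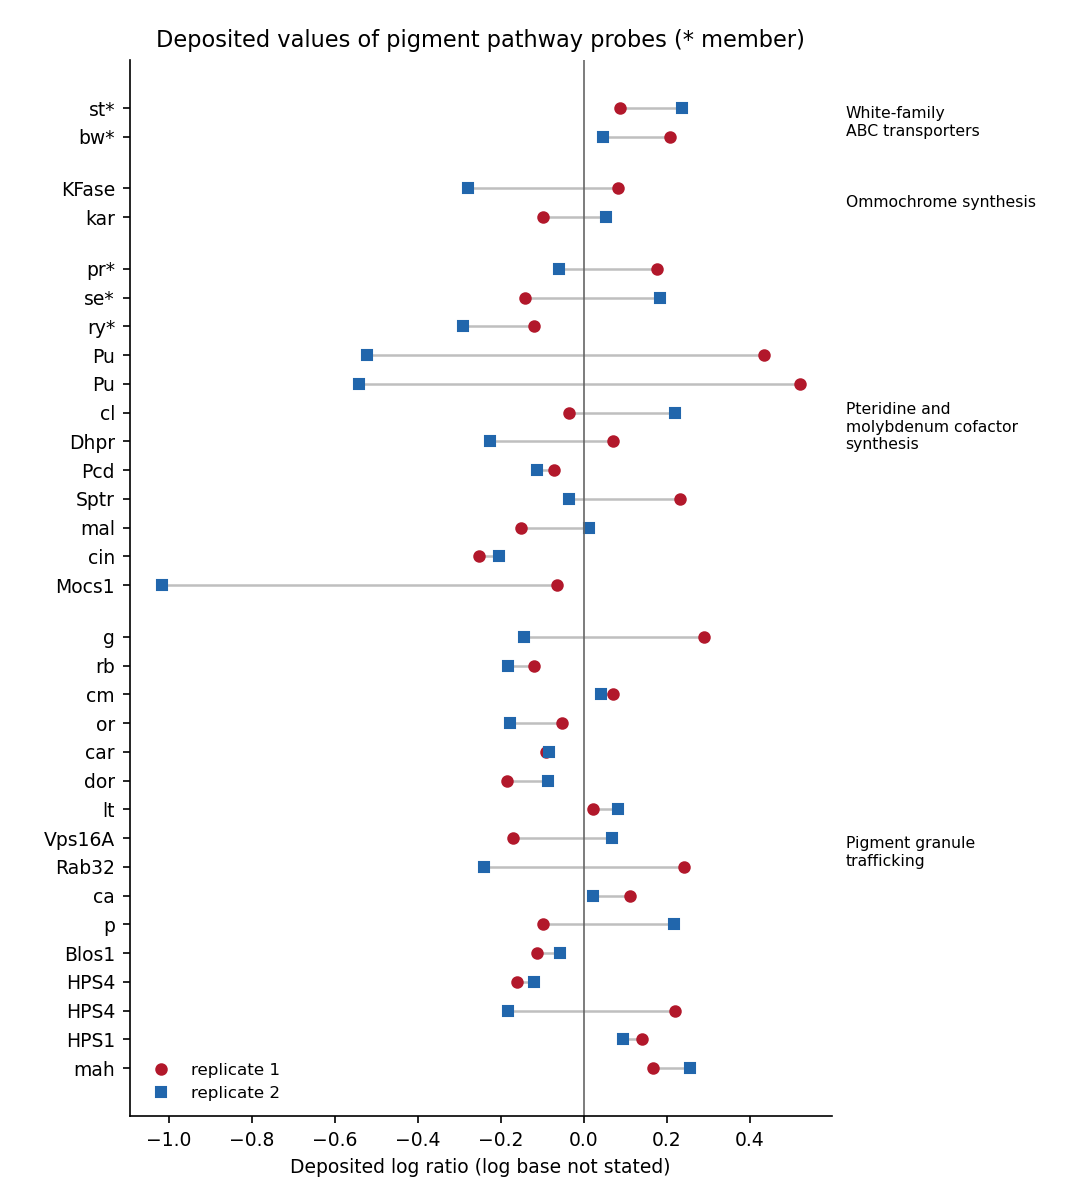
Deposited log ratios (horizontal axis, log base not stated) of every probe with both values in 4 gene lists of pigment transport, synthesis and granule trafficking, with a row per probe. Circles are replicate 1, squares replicate 2, and an asterisk marks a member. A pair on the same side of 0 has the same sign by channel, and a pair on opposite sides, as for se, pr and both probes of Pu, has the same sign by dye.

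Pigment granules are relatives of lysosomes, and 15 genes of trafficking to them, among them subunits of the adaptor complex AP-3, were taken beside the pigment genes. All 15 were measured, and limma called 0 of their 16 probes in either reading, where 0.0% of all probes were called. Read by channel, 5 were above 0 on both arrays and 5 below, against 28.1% and 24.3% of all named genes. The median of the 15 was 0.0005, with gene means from -0.151 (rb, an AP-3 subunit) to 0.212 (mah). Read by dye, there were 3 above and 2 below, against 21.9% and 25.6% of all named genes. The median of the 15 was there 0.014, with gene means from -0.1585 (p) to 0.2405 (Rab32, a small GTPase). The value of Rab32 rests on 1 of its probes, as the other had a value of 0.307 on replicate 2 alone, of the opposite sign there. The 12 other ABCG transporter genes, relatives of st and bw, had a by-channel median of -0.0425. Of the 12, 1 was above 0 on both arrays and 6 below, against 28.1% and 24.3% of all named genes. Read by dye, their median was 0.0402, with 5 above 0 on both arrays and 0 below, against 21.9% and 25.6%. These counts were not tested. The by-channel means of st and bw, 0.162 and 0.1275, compare with a range of the 12 from -0.228 (E23, an ecdysone-induced transporter) to 0.102 (CG4822). With same-place medians removed, bw was at 0.1, CG4822 at 0.1058 and E23 at -0.0912, and on replicate 1 alone CG4822, at 0.211, and CG31689, at 0.224, read higher than bw and st, at 0.209 and 0.088. Read by dye, st was at -0.074, against a range of the 12 from -0.044 (CG9664) to 0.1495 (CG31689). With same-place medians removed, st was at -0.0242 and CG9664 at -0.0472 by dye, so the order of these genes changed with the processing.

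Markers of tissues in which pigment genes are active are given beside the members, and their part in the values was not tested. Of 17 photoreceptor markers, 11 were measured on both arrays. Their median was 0.1225 by dye, with 6 above 0 on both arrays and 1 below, against 21.9% and 25.6% of all named genes, and gene means from -0.05 to 0.4805. Read by channel, it was 0.0555, with 4 above and 0 below, against 28.1% and 24.3%. Of 13 Malpighian tubule markers, 10 were measured. Their median was 0.052 by dye, with 5 above 0 on both arrays and 2 below, against 21.9% and 25.6% of all named genes. Read by channel, it was 0.0335, with 2 above and 1 below, against 28.1% and 24.3%. At an unadjusted limma p under 0.05 were 1 of the 10 tubule probes by channel, against 6.52% of all probes, and 0 by dye, against 6.0%. Of 6 fat body markers, 3 were measured, with medians of 0.0545 by dye and 0.1185 by channel. Of 6 larval cuticle markers, 2 were measured, with a median of 0.668 by dye and -0.0778 by channel. Past 0.301 on both arrays by dye were 2 of the 11 photoreceptor probes and both cuticle probes, all 4 upwards, where 1.41% of all probes were. Their by-dye means were 0.4805 ± 0.0785 for ninaB, an oxygenase that makes the chromophore of rhodopsin, and 0.4625 ± 0.192 for Gbeta76C, a G protein subunit of phototransduction (SD, n = 2 arrays). Those of the cuticle protein genes were 0.7025 ± 0.326 for Lcp9 and 0.634 ± 0.106 for Lcp65Aa. Read by channel, the arrays opposed each other for all 4 genes. The by-channel means were 0.0555 ± 0.6795 for ninaB and 0.1355 ± 0.6541 for Gbeta76C. They were -0.2305 ± 0.9935 for Lcp9 and 0.075 ± 0.8966 for Lcp65Aa. At an unadjusted limma p under 0.05 by dye were 3 of the 11 photoreceptor probes and both cuticle probes, against 6.0% of all probes, and 0 passed after adjustment in either reading. By channel, 0 of the photoreceptor and cuticle probes had an unadjusted limma p under 0.05, against 6.52% of all probes. Past 0.301 on both arrays by channel were 0 of them as well, against 1.52%.

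**Figure D4:**
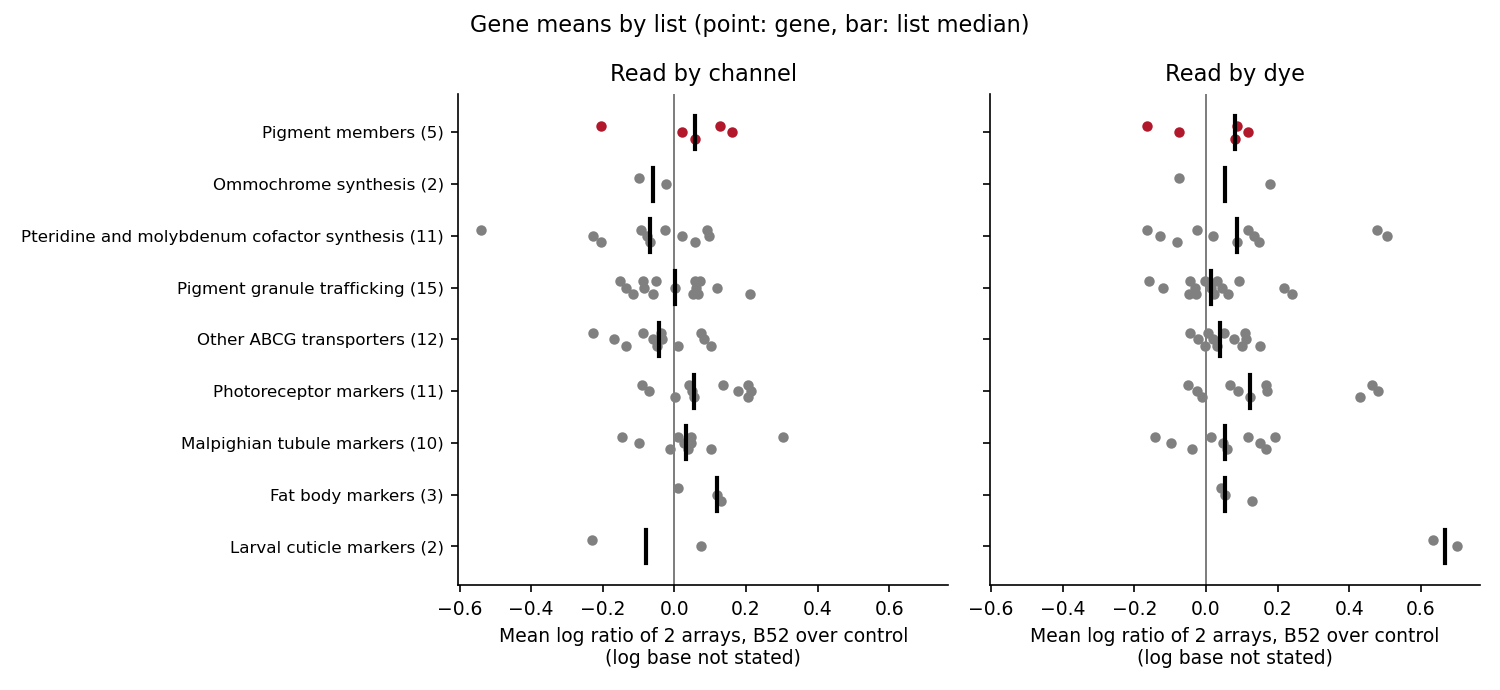
Mean log ratio of 2 arrays for B52 over control (horizontal axis, log base not stated) of each gene, by list, read by channel on the left and by dye on the right. Each point is a gene, black bars are list medians, and the number of genes measured on both arrays is in parentheses. The pigment members, in red, range from -0.2045 to 0.162 by channel and from -0.1635 to 0.1185 by dye.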

How the data were processed

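Per the labels, RNA of GFP-B52 and GFP-NLS larvae was hybridised in a dye swap of 2 arrays. The authors deposited 1 value per spot, treated here as a score that is a log ratio, with log base, direction and upstream steps not given in the sources used here. Spots coded -10000 (5 on replicate 1) and blanks were missing. Control spots (960, at 40 unnamed places repeated in each of 24 sub-grids) were left out. Genes were named by gene ID through the platform annotation and a RefSeq table: 12519 of 13147 probes with 1 symbol matched. No genome build was named, so positions in the genome are not used. The 12500 probes with both values were fitted against 0 in each reading with lmFit and eBayes of limma 3.58.1 (R 4.3.3; 1 residual degree of freedom) and adjusted by Benjamini-Hochberg over all probes at 0.05; the fit was tested on simulated data. Print blocks are 48 runs of consecutive spots. Tables and plots used Python 3.11.15, numpy 2.4.6, pandas 2.3.3 and matplotlib 3.10.9.

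Members, lists and tests were chosen with earlier results of these data known. Named were all members, the highest and lowest genes of each pathway list in each reading and genes of any list with a probe past 0.301 on both arrays; cin and mal were named outside this rule. The lists of omega transferases and aldehyde oxidases and the removal of same-place medians were added after seeing the data. The naming rule also asked for genes nearest to w, which had no probe here. Alternatives covered centring, scaling, print blocks, extreme values, the variance model, averaging of probes, thresholds, control spots and single arrays.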

Additional observations from a re-analysis of the deposited data

How the results depend on the processing

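With 2 arrays, precision is limited by their number, and dimness of spots could not be judged. Limma called 0 probes in both readings under every alternative run. The count past 0.301 on both arrays was 190 by channel and 203 by dye. With control spots kept it was 345 by channel, at a log ratio of 1 it was 0 in both readings, and on single arrays it ran from 1123 to 1292. The member median by channel was -0.0165 with print-block medians removed and -0.007 with same-place medians removed, against 0.0585. On single arrays it ran from 0.046 to 0.088 by channel and from -0.046 to 0.088 by dye. Of 60 values of the member means over both arrays, 4 turned sign, all by channel. Without print-block medians pr was at -0.035 and se at -0.0165, and without same-place medians pr was at -0.007 and se at -0.049. Another 2 moved by at least 1 SD, both of se by dye, to -0.1265 without print-block medians and -0.118 without same-place medians. Part of the 60 could not change, as each member had 1 probe and a median over probes was its mean. Leaving out extreme probes likewise left the value of a kept probe as it was. The means of st, bw and ry over both arrays kept their sign in both readings. Of 242 values of other named genes, 17 turned sign. With arrays centred, by-channel means were -0.0035 for GstO2 and -0.0055 for Rab32. With arrays scaled, they were -0.0028 for GstO2 and 0.007 for Pu, and the by-dye mean of E23 was -0.0104. Without print-block medians the by-channel means were 0.0105 for AOX3, -0.0083 for CG31689, 0.0135 for GstO1, -0.0102 for GstO2, -0.0175 for Lcp65Aa and -0.0822 for Rab32, and the by-dye mean of mah was 0.018. Without same-place medians the by-channel means were -0.0148 for AOX2 and -0.018 for GstO3, and the by-dye means were -0.0363 for E23, 0.007 for cin and 0.057 for GstO3. Of the 242 values, 13 moved by at least 1 SD, with that of GstO3 by channel in both counts. Without print-block medians the by-channel mean of mah was 0.109, against 0.212, and that of rb -0.073, against -0.151. That of cin moved away from 0, to -0.269 from -0.2285. Without same-place medians the by-dye mean of Rab32 was 0.1775, against 0.2405. The cause was not tested. Each array is itself a ratio of both groups, so the test of the ratios against 0 used the pairing of the 2 RNAs on an array.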
